A study of Mus musculus with 5 samples.

Results

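The metallothioneins and the transporters that move zinc into and out of the cytosol were followed in mouse liver through 10 genes: the metallothionein genes Mt1 and Mt2, the zinc-sensing transcription factor gene Mtf1, the exporter genes Slc30a1 and Slc30a10, and the importer genes Slc39a4, Slc39a5, Slc39a8, Slc39a10 and Slc39a14. They were found by matching the accession of each array probe, without its version, to RefSeq genes of the assembly GRCm38.p6. All 10 genes had a probe on the array, with 12 probes in all, out of 19752 genes named in this way. For 9 of the 10 genes a probe passed the filter on dim signals, and Slc39a5 did not.

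Livers of 4 C57BL/6J mice with hepatocyte-restricted overexpression of Fra-1 (Fra-1hep), an AP-1 subunit encoded by Fosl1, were each compared on a 2-colour Agilent array with a pool of liver RNA from 5 wild-type C57BL/6J mice. A single extra array carried the dyes the other way round and set a pool of Fra-1hep RNA, whose mice the labels do not name, against the control pool. Mice of both genotypes were 26 to 28 weeks old and had been on high-fat chow, 45% of its energy being fat, from the age of 4 weeks. The labels do not name the promoter that drives Fra-1 in hepatocytes, and all samples used share this diet.

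Metallothioneins are small cysteine-rich proteins that bind zinc and copper, and the liver makes them in large amounts. When free zinc rises, the factor MTF-1 binds metal response elements in DNA and switches on Mt1, Mt2 and Slc30a1, while it represses Slc39a10. ZnT proteins (the Slc30a family) move zinc out of the cytosol and ZIP proteins (the Slc39a family) move it in. Glucocorticoids and inflammatory signals also raise metallothionein transcripts, and interleukin-6 raises Slc39a14 in liver.

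The promoters of the 3 genes most tied to MTF-1 are shown because these 3 rose. Each sequence is the 250 bases before the RefSeq transcript start on GRCm38.p6, with capitals for matches to the core of the metal response element.
Mt1, chr8:94178839-94179088, plus strand: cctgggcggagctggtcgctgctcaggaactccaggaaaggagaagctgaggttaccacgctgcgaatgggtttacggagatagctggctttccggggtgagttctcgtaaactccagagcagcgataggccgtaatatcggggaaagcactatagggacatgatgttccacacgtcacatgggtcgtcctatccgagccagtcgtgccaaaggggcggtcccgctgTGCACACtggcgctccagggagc
Mt2, chr8:94172368-94172617, plus strand: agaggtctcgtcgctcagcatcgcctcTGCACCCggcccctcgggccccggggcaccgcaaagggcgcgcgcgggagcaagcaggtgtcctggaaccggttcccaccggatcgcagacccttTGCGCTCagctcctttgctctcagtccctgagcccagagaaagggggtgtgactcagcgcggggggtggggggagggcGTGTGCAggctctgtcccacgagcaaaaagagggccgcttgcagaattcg
Slc30a1, chr1:191906531-191906780, plus strand: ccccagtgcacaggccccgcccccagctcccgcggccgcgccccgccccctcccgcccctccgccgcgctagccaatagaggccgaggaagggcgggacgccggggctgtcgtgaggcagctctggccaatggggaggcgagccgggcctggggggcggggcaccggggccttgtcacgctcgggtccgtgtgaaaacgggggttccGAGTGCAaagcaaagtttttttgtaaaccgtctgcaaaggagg
The search used the letters TGCACNC and TGCGCNC on both strands, with overlapping matches counted once, over windows that also held the 50 bases after the start, which are not printed. Of the 10 genes, 8 had a window in the RefSeq promoter table. The Mt2 window held 4 matches, of which 1 lay after the start. The Mt1 window held 3, with 2 of them after the start, at bases 3 to 9 and 21 to 27. The RefSeq start used for Mt1 may lie upstream of the start site in common use, so its window may not hold the whole classical promoter, and its count covers these bases alone. The Slc30a1 window held 2, with 1 after the start. At least 1 match was present in 25.7% of 32841 windows in the table, at least 2 in 6.14%, at least 3 in 1.31% and at least 4 in 0.295%. Slc30a10 had 2 matches, and 1 of the windows each of Slc39a5 and Slc39a8 had 1. No match was found in the windows of Mtf1 or Slc39a10. The AP-1 letters TGANTCA, on both strands, occurred once in the Mt2 window, in the part printed above, and in none of the other windows of these genes; 7.81% of all windows held them. These matches describe the letters alone and are no measure of binding.

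Mt1 and Mt2 stood far above the rest of the group. In scanner units after the software's own background and dye correction, the Mt1 probe read 108882, 84510, 78262 and 64109 in the Fra-1hep channel of mice 1 to 4 and 95587 in the dye-swap pool. The control pool on the same arrays read 20686, 19917, 19256, 21875 and 28631. The ranges did not overlap, and the lowest Fra-1hep value, in mouse 4, was above the highest control value, on the swapped array. Here and for Mt2 below, the control values are repeated readings of 1 pool and hold no spread between control mice. The share of all features without overlap was not computed. Log2 ratios of Fra-1hep over control after loess were 2.51, 2.28, 2.24 and 1.70 for mice 1 to 4, against 1.48 for the dye-swap pool.

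The Mt2 probe read 64881, 57211, 44536 and 37324 for mice 1 to 4, against 50750 for the dye-swap pool. Its control channel read between 7723 and 11153, again with no overlap. Log2 ratios were 2.86, 2.87, 2.42 and 2.07 for mice 1 to 4, against 2.16 for the dye-swap pool. Both genes were lowest in mouse 4 among the mice.

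The change was estimated with limma, an empirical Bayes linear model, fitted over 21493 features with a genotype coefficient and a dye term. The swapped array weighs as much in that coefficient as the 4 mice together, and the spread between samples comes from the mice. The dye term takes up any gap between the mice and the swapped array, so the SE leaves that gap out. In the 4 mice Fra-1hep RNA always carried the same dye. Wherever the swapped array is left out, the value and its p therefore cannot tell genotype from dye. Mt2 rose 5.12-fold (log2 2.36 ± 0.15 SE, adjusted p = 0.000133 by limma). Mt1 rose 3.56-fold (log2 1.83 ± 0.14 SE, adjusted p = 0.00026). In the 4 mice alone the log2 ratios averaged 2.55 ± 0.39 (SD, n = 4) for Mt2 and 2.18 ± 0.34 (SD, n = 4) for Mt1. By size of change, 0.228% of all features lay beyond Mt2 and 0.437% beyond Mt1. The log2 ratio of Mt2 exceeded that of Mt1 on each of the 5 arrays, by 0.35, 0.60, 0.18 and 0.37 in mice 1 to 4 and by 0.68 in the dye-swap pool. These are ratios from different probes, and the difference was not tested. The paralogues resemble each other, so each probe may read some transcript of the other gene and the separate values are uncertain.

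**Figure D1:**
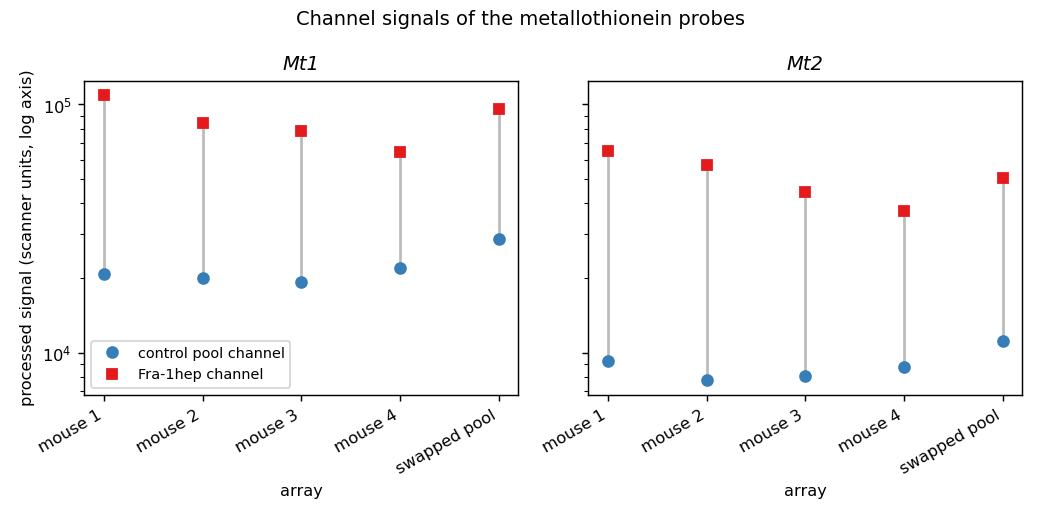
Processed scanner signal, on a log axis, of the Mt1 and Mt2 probes on each of the 5 arrays, with circles for the control pool channel and squares for the Fra-1hep channel. For Mt1, every square (64109 to 108882) lies above every circle (19256 to 28631).

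The other 8 genes moved by little or not past the threshold of 0.05 on the adjusted p. Of the 9 genes tested, 5 were called higher (Mt1, Mt2, Mtf1, Slc30a1 and Slc39a14), 1 was called lower (Slc39a10) and 3 did not pass (Slc30a10, Slc39a4 and Slc39a8). Over all features 11.2% were called higher and 15.4% lower, 26.6% in all, so the 1 lower call among 9 was near the background. At least 2-fold rises were seen in 2 of the 9, against 0.675% of all features. The median change of the 9 was 0.28. The genes were chosen with earlier results known, so these counts describe the group and support no statement about it. With standard errors enlarged for 5 control mice that vary like the Fra-1hep mice, 3 of the 9 were called higher (5.05% of all features) and 1 lower (8.19%), with 13.2% of all features called. Without the dye-swap array 4 were higher and 3 lower, where 16.9% and 19.0% of all features were, 35.9% in all. Against a minimum change of 1.2-fold, Mt1 and Mt2 alone of the 9 passed, with 4.89% of all features called, 1.54% higher and 3.35% lower.

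**Figure D2:**
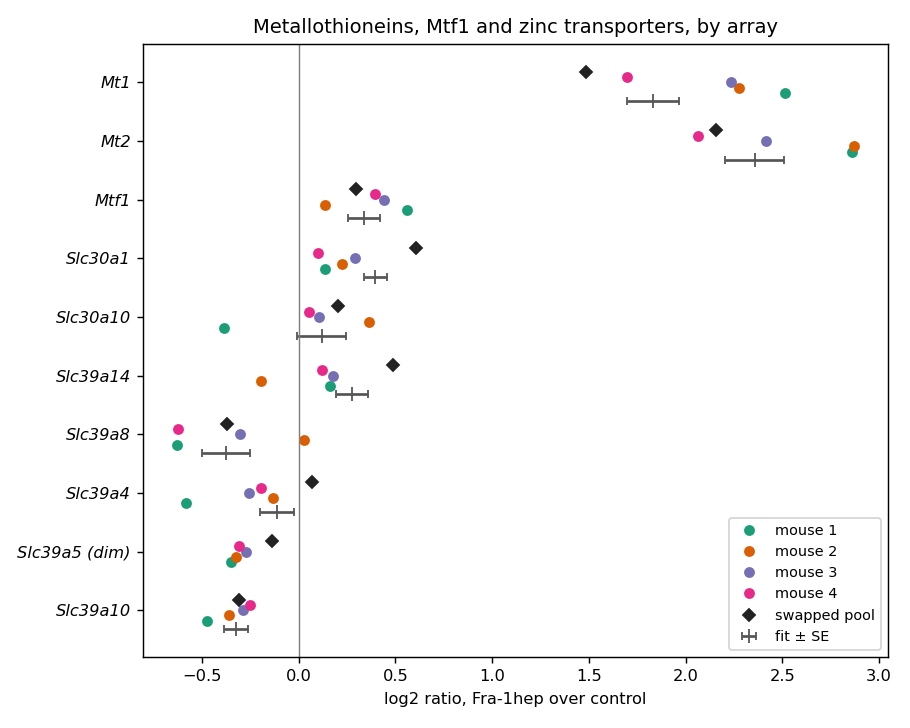
Log2 ratio of Fra-1hep over control for each of the 10 genes, with circles for the 4 mice, diamonds for the dye-swap pool and a bar for the fitted change ± SE; Slc39a5 has no bar because it was not tested. Mt1 and Mt2 lie between 1.48 and 2.87 on every array, and the other 8 genes lie between -0.63 and 0.60.

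Mtf1, which encodes the zinc sensor itself, had a log2 ratio of 0.56, 0.13, 0.44 and 0.39 for mice 1 to 4, against 0.29 for the dye-swap pool at its brightest probe. All 5 values were above 0, lowest in mouse 2, and 16.1% of all features were above 0 on all 5 arrays. The gene rose 1.26-fold (log2 0.34 ± 0.08 SE, adjusted p = 0.0248 by limma). Its second probe gave smaller ratios, from 0.05 to 0.30, and the mean of both probes was 0.23 ± 0.07 SE (adjusted p = 0.0487). The third probe was not well above background in either channel of any array. The call ended without mouse 3 (adjusted p = 0.0553), without mouse 4 (0.0561) and with the control pool's spread added (0.0813).

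Slc30a1, which encodes the plasma membrane zinc exporter ZnT1, had a log2 ratio of 0.14, 0.22, 0.29 and 0.10 for mice 1 to 4, against 0.60 for the dye-swap pool. The swapped pool stood above all 4 mice. The gene rose 1.32-fold (log2 0.40 ± 0.06 SE, adjusted p = 0.00445 by limma). Without the swapped array the value was 0.19 ± 0.05 SE and passed (adjusted p = 0.0325), in a fit that cannot tell genotype from dye. Slc30a10, which encodes a manganese exporter, read -0.39, 0.36, 0.11 and 0.05 for mice 1 to 4, against 0.20 for the dye-swap pool. Its sign was mixed, and the fitted value of 0.12 ± 0.12 SE did not pass (adjusted p = 0.524).

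Among the importers, Slc39a10 (ZIP10) had negative log2 ratios on every array, at -0.47, -0.36, -0.29 and -0.25 for mice 1 to 4, against -0.31 for the dye-swap pool; 19.5% of all features were below 0 on all 5 arrays. Its log2 level fell by 0.33, or 1.25-fold (SE 0.06, adjusted p = 0.0105 by limma). Its probe was dim, and the offset of 50 added to every signal shrinks ratios of dim probes. With an offset of 0 its value was -0.62 ± 0.10 SE (adjusted p = 0.0149), and with the software's processed signals -0.93 ± 0.18 SE (adjusted p = 0.0292).

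Slc39a14 (ZIP14), which carries zinc, iron and manganese into hepatocytes, had log2 ratios of 0.16, -0.20, 0.18 and 0.12 for mice 1 to 4, against 0.49 for the dye-swap pool. Mouse 2 was below 0 and the dye-swap pool above all mice. The fitted value of 0.28 ± 0.08 SE passed narrowly (adjusted p = 0.0461), and the call rested on the swapped array: the 4 mice alone averaged 0.07 (adjusted p = 0.524). The call was lost in 12 of 17 alternatives, among them without mouse 1 (adjusted p = 0.0722), mouse 3 (0.0903) or mouse 4 (0.0934).

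Slc39a8 (ZIP8), a close relative with the same range of metals, read -0.63, 0.03, -0.31 and -0.62 for mice 1 to 4, against -0.37 for the dye-swap pool. Mouse 2 alone was not below 0. The value of -0.38 ± 0.12 SE did not pass (adjusted p = 0.0654). It passed without mouse 2 (-0.45, adjusted p = 0.011) and without the swapped array (-0.38, adjusted p = 0.0353).

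Slc39a4 (ZIP4), best known for zinc uptake in the intestine, was well above background on all 5 arrays in both channels. Its log2 ratios were -0.59, -0.13, -0.26 and -0.20 in mice 1 to 4 but 0.07 in the dye-swap pool. The value of -0.11 ± 0.09 SE did not pass (adjusted p = 0.388). In the 4 mice alone it was -0.29 and passed (adjusted p = 0.0277), and 19.0% of all features were called lower without that array. Such a fit holds a single dye order, so genotype and dye cannot be told apart in it. Slc39a5 (ZIP5), a basolateral importer of polarised cells, had log2 ratios of -0.35, -0.32, -0.27 and -0.31 for mice 1 to 4, against -0.14 for the dye-swap pool. In the Fra-1hep channel 0 of 5 arrays had it well above background, and in the control channel 2 of 5. No fold is given for so dim a probe; without the filter on dim probes the fit gave -0.23 ± 0.05 SE (adjusted p = 0.0233).

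The rest of both transporter families gave no call, where 26.6% of all features were called. At least that share had an unadjusted p under 0.05, since every called feature did. The 5 ZnT and 8 ZIP genes below are too few for a statement about the families. Of the other 5 ZnT genes tested, 0 were called by limma, and 0 had an unadjusted p under 0.05. Of the other 8 ZIP genes tested, 0 were called, and 1 had an unadjusted p under 0.05, Slc39a3 at 0.16 ± 0.06 SE. Their fitted changes ran from -0.13 in Slc30a5 to 0.16 in Slc39a3, with medians of -0.11 over the ZnT genes and 0.06 over the ZIP genes. None of these 13 transporter genes was called under any alternative in which it was tested; Slc39a2 and Slc39a9 dropped out where both channels had to be above background on all arrays. Slc39a9 moved from -0.07 to -0.47 with processed signals and did not pass (adjusted p = 0.108). Slc30a2, Slc30a3, Slc30a8 and Slc39a12 did not pass the filter on dim signals.

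**Figure D3:**
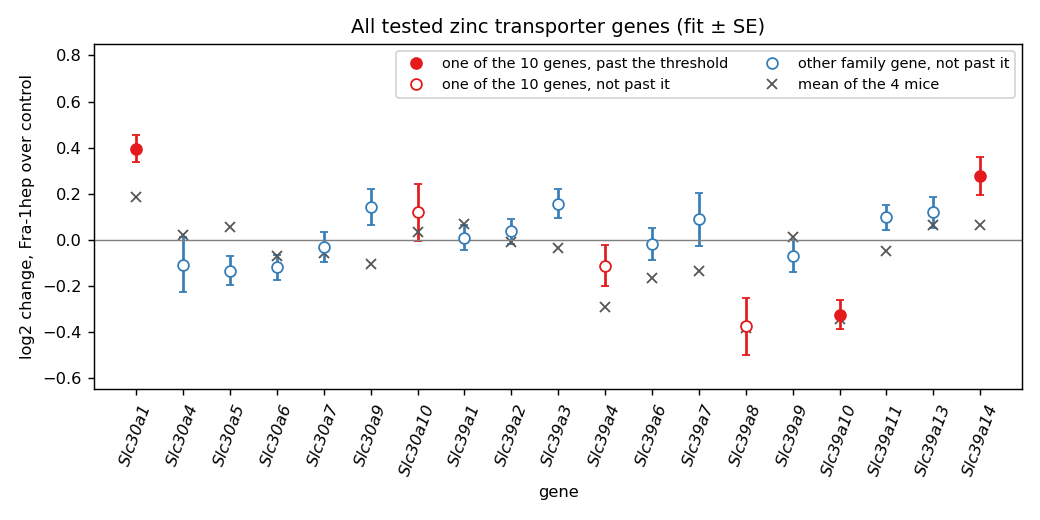
Fitted log2 change ± SE of each tested ZnT (Slc30a) and ZIP (Slc39a) gene, filled where the adjusted p passed the threshold, with crosses for the mean of the 4 mice. Slc30a1 (0.40), Slc39a14 (0.28) and Slc39a10 (-0.33) are filled, and the cross of Slc39a14 lies at 0.07.

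Mt3 and the chromosomal neighbours gave values far smaller than Mt1 and Mt2. Mt3, which lies next to Mt2, had ratios from 0.23 to 0.53 among the 4 mice but -0.18 for the dye-swap pool, and its value of 0.10 ± 0.07 SE did not pass (adjusted p = 0.335). Without the swapped array it passed at 0.38 (adjusted p = 0.00418), in a fit that cannot tell genotype from dye. Mt4 did not pass the filter. The 5 protein-coding genes on each side of the pair were looked up after their values were seen. Nup93, the next gene beyond Mt1, fell by 0.37 on the log2 scale (SE 0.07, adjusted p = 0.0117), and Cpne2 fell by 0.39 (SE 0.05, adjusted p = 0.00343). Over all features 15.4% were called lower, and the neighbours are too few for a statement. Bbs2 (0.10 ± 0.06 SE), Nudt21 (0.10 ± 0.06 SE), Herpud1 (-0.18 ± 0.16 SE) and Nlrc5 (-0.17 ± 0.08 SE) did not pass, and Slc12a3 was not tested. Ogfod1 had 0.63 to 1.07 in the mice but -0.32 in the dye-swap pool, and did not pass (adjusted p = 0.0592).

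The next question was whether other zinc-responsive genes moved with the metallothioneins. A list of 14 genes reported as MTF-1 targets or as metal-responsive had 12 members tested. Of these, 2 rose, 3 fell and 7 did not pass, with a median of -0.20, against 11.2% higher and 15.4% lower over all features, whose median was -0.0034. Selenow, which encodes a selenoprotein, had log2 ratios of 0.68, 0.71, 0.63 and 0.77 for mice 1 to 4, against 0.12 for the dye-swap pool. It rose by 0.41 ± 0.05 SE (adjusted p = 0.0028), and by 0.70 without the swapped array. Selenoh, another selenoprotein gene, rose by 0.27 ± 0.06 SE (adjusted p = 0.0143), with 0.16 to 0.31 among the mice and 0.28 for the dye-swap pool. That call ended under median centring (adjusted p = 0.0549) and with the control pool's spread (0.0523).

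The 3 that fell were Gclc, of glutathione synthesis, Slc40a1, which encodes the iron exporter ferroportin, and Hmox1, haem oxygenase, the last chosen after its value was seen. Gclc read -1.21, -0.51, -0.78 and -0.75 for mice 1 to 4, against -0.77 for the dye-swap pool. It fell by 0.79 on the log2 scale (SE 0.12, adjusted p = 0.00421). Slc40a1 fell by 0.59 (SE 0.15, adjusted p = 0.0275), with the largest reduction in mouse 4 at -1.03. Its call was lost in 6 of 17 alternatives, among them without mouse 3 (adjusted p = 0.0522). Hmox1 fell by 0.60 (SE 0.15, adjusted p = 0.0287). With processed signals 1 of the 12 was lower instead of 3, and without the swapped array 6 were.

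**Figure D4:**
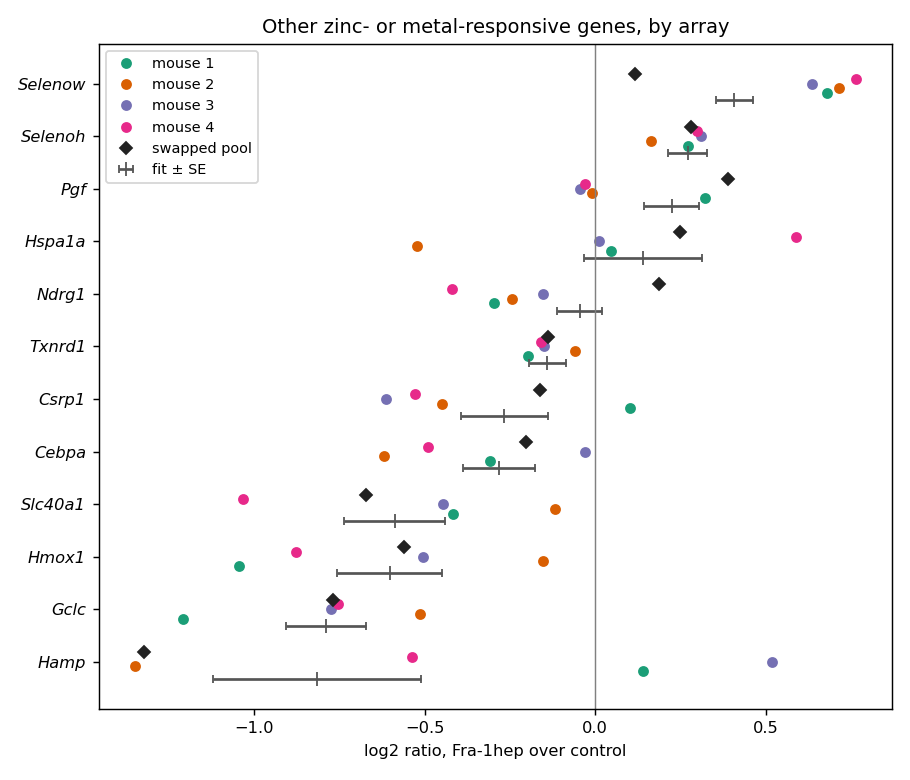
Log2 ratio of Fra-1hep over control for the 12 tested genes of the zinc- or metal-responsive list, with circles for the mice, diamonds for the dye-swap pool and bars for the fitted change ± SE. Every value lies below the lowest Mt1 ratio of 1.48, from -1.35 to the 0.77 of Selenow in mouse 4.

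Genes for handling of manganese, iron and copper had 2 of 20 tested members higher, 5 lower and 13 not passing, with a median of -0.02; over all features 11.2% were higher and 15.4% lower. Steap4, a metalloreductase, fell by 0.60 (SE 0.09, adjusted p = 0.00416) and Atp7a, a copper exporter, by 0.37 (SE 0.06, adjusted p = 0.00432). Cp, which encodes ceruloplasmin, fell by 0.40 (SE 0.09, adjusted p = 0.0157), a call that ended with the control pool's spread (0.0566). Slc31a1, the copper importer CTR1, rose by 0.23 ± 0.06 SE (adjusted p = 0.0237). That call was lost in 4 of 17 alternatives, among them without mouse 3 (adjusted p = 0.0545).

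Genes of the other inducers of metallothioneins were also read. Of 15 glucocorticoid-responsive liver genes, 0 were called higher by limma, 2 lower and 13 not passing. The shares over all features were 11.2% higher and 15.4% lower. At an unadjusted p under 0.05, 1 was higher and 5 were lower. Every called feature also met that cut, so the shares over all features there are at least 11.2% and 15.4%. Cdkn1a, a cell cycle inhibitor, fell by 1.23 (SE 0.20, adjusted p = 0.00579), while Pck1 at 0.46 and Klf9 at -0.31 did not pass. Pck1, of gluconeogenesis, passed in 6 of 17 alternatives, reaching 0.70 when the dye-swap array was left out (adjusted p = 0.00864) and, with mouse 1 left out, 0.56 (adjusted p = 0.00172). Klf9, a transcription factor, passed in 3 of 17, reaching -0.54 when that array was left out (adjusted p = 0.00446) and -0.37 when mouse 4 was (adjusted p = 0.0225). Tat, a tyrosine-degrading enzyme, fell by 0.58 (SE 0.18, adjusted p = 0.0488). Its call was lost in 12 of 17 alternatives, among them without mouse 1 (0.0605), mouse 2 (0.0637), mouse 3 (0.0686) or the swapped array (-0.33, adjusted p = 0.145). Of 19 genes responsive to interleukin-6 and STAT3, 5 rose, 9 fell and 5 did not pass, beside 11.2% higher and 15.4% lower over all features. The fibrinogen genes Fgb (1.63 ± 0.06 SE), Fgg (1.21 ± 0.08 SE) and Fga (0.97 ± 0.08 SE) rose while Lcn2 fell by 1.80 (SE 0.10). Fgb and Fgg differed between the swapped array and the rest, at 0.63 and 0.84 in the dye-swap pool against 2.64 and 1.59 in the mean of the mice. That array differs both in dye order and in being a pool, and these cannot be told apart. Saa1, an acute-phase gene chosen after its value was seen, fell by 2.53 (SE 0.22).

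Enzymes and other proteins that bind zinc had 8 of 21 tested members higher, 4 lower and 9 not passing. Over all features these shares were 11.2% and 15.4%, and the 4 lower calls were near the latter. Hrg, histidine-rich glycoprotein, rose by 0.72 ± 0.06 SE and Ahsg, fetuin-A, by 0.71 ± 0.06 SE, the latter with 0.13 in the dye-swap pool. Car3, a carbonic anhydrase, fell by 2.31 (SE 0.15) and Alpl, alkaline phosphatase, by 0.91 (SE 0.06). S100a8 and S100a9, which encode the zinc-binding neutrophil protein calprotectin and were chosen after their values were seen, rose by 2.60 ± 0.29 SE and 2.51 ± 0.30 SE. They were highest in mouse 2, at 3.68 and 3.50, and also stand in the neutrophil list below; Mt2 was highest in mouse 2 (2.87, with 2.86 in mouse 1) and Mt1 in mouse 1.

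The genes most like Mt1 and Mt2 over the 5 arrays were taken by the root mean square difference from the mean log2 ratio of both, among 4127 other named genes past the threshold. Nearest was Atp6v0d2, a subunit of the vacuolar proton pump, at a difference of 0.272, with 2.49, 2.43, 2.15 and 1.82 for mice 1 to 4, against 2.35 for the dye-swap pool. Mbp (0.333), the hexokinase-like gene Hkdc1 (0.393), Smpdl3b (0.432), Vill (0.461) and Cyp2c55 (0.476) followed. This order rests on these values alone and was not recomputed under other settings. With the mean of probes the change of Mbp was 0.88 in place of 2.05. With processed signals Hkdc1 went from 1.90 to 2.86 and Atp6v0d2 from 2.28 to 3.29.

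Markers of other cells moved beside these results. Over all features 11.2% were called higher and 15.4% lower, and the cholangiocyte and hepatocyte counts below were near these shares. Of 9 tested neutrophil markers 7 rose and 0 fell, and their summed signal was 16217 to 49657 in the Fra-1hep channels against 4299 to 6389 in the control channels. Of 9 macrophage markers 3 fell and 0 rose (26344 to 55277 against 56531 to 64801). Named with their values known, the 3 were Cd14, Adgre1 and Cd5l. Marco (-0.78), Csf1r (-0.54) and Lyz2 (-0.36) were below 0 but did not pass. Timd4 (0.13), Clec4f (0.07) and Vsig4 (0.05), also picked with their values known, did not pass and were not below 0. The lower sum was thus not shared by all 9 markers. Of 5 exocrine pancreas markers, from 12 listed, 3 rose (5024 to 7447 against 2808 to 3071). Named with their values known, these were Cela1 (3.34), Amy2a5 (0.54) and Ctrb1 (0.29), so the large rise was in Cela1 alone. Ctrl (0.10) and Cel (0.01) did not pass. Of 6 endothelial and 6 stellate cell markers, 3 each fell. Of 7 cholangiocyte markers 1 rose, and of 4 tested enterocyte markers, from 12 listed, 3 rose and 1 fell. The 9 tested hepatocyte markers were well above background on all 5 arrays, with 1 higher, 1 lower and a median fitted change of 0.01. By array their median log2 ratio was 0.44, 0.35, 0.20 and 0.26 for mice 1 to 4, against -0.23 for the dye-swap pool. The median fitted change near 0 thus stands between opposite signs, and the reason was not tested. The part of these cells in the values above was not tested, and in bulk liver fewer cells of a type and less RNA per cell cannot be told apart. Fosl1 had 1 probe, with log2 ratios from -0.37 to 0.12; its Fra-1hep channel cleared the background on 0 of 5 arrays, so it did not check the labels. Pearson's r over features was 0.74 to 0.84 between mice and 0.59 to 0.61 between the dye-swap pool and each mouse; features are no replicates, and all arrays share the control pool.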

How the data were processed

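Each array measured liver RNA of 1 Fra-1hep mouse (4 arrays) or a Fra-1hep pool (1 array, dyes swapped) against the control pool. Per the labels' protocols, 100 ng of RNA with an integrity score above 7.8 was labelled. The authors read spot intensities using Agilent's Feature Extraction software, which the file headers give as 10.7.3.1 and the submitters' processing notes as 10.7. Per the file headers, each file holds raw median signal intensity, processed intensity, a log10 ratio (red over green), and quality flags of 0 or 1, taken as other values. The deposited series table holds log2 ratios; against the scanner ratios its slope was 1.00 for each mouse and -1.00 for the swapped array, so it runs as Fra-1hep over control. No source used here states any further step behind it.

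Median signals were corrected with normexp (offset 50) and each array by loess, leaving out control spots and 189 outlier spots; 0 spots were saturated. The share of spots well above background was 45.1% to 52.5% in Cy5 and 45.6% to 59.1% in Cy3. A probe was kept where 3 or more arrays had it well above background in any channel and all 5 had a value (28048 of 55681), and the brightest stood for its gene. Log ratios were fitted with limma 3.58.1 in R 4.3.3 (3 residual and 4.02 prior degrees of freedom), with Benjamini-Hochberg adjustment over 21493 features and a threshold of 0.05. The control pool counts as 1 sample, so its own spread is left out. On simulated data for this comparison, 67 of 21493 features were changed by 0.5, 67 by 1 and 66 by 2 on the log2 scale. Of these, 41.8%, 83.6% and 98.5% were recovered. In the data 26.6% of features were called, a far larger share, so these rates may not carry over. Precision is limited by having 4 mice and 1 control pool. If the Fra-1hep pool holds the same 4 mice, which the labels do not tell, the swapped array adds no animals.

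The genes described and the lists were chosen with earlier results of these data known. Named are the 10 genes, up to 4 genes with the smallest p of each list, and the 6 genes most like Mt1 and Mt2; any other gene is marked in the text as picked with its value known. Mouse 1 was alone on its slide, so the slide as a block equals leaving it out.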

Additional observations from a re-analysis of the deposited data

Results flagged for a closer look

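Among the 4 mice, the log2 ratio of Slc39a14 in mouse 2 (-0.20) lay far from the other 3, which ran from 0.12 to 0.18, by Dixon's criterion for 4 samples. Chance gives such a gap in about 1 of 20 groups, and 10 genes were looked at.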

How the results depend on the processing

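Mt1 and Mt2 kept their direction and call in all 17 alternatives, at 1.78 to 2.18 and 2.30 to 2.55 on the log2 scale. The 17 are not all distinct, here or in the counts out of 17 above. Processed signals and deposited values gave the same 1.88 for Mt1 and 2.37 for Mt2, and the slide as a block equals leaving out mouse 1. Leaving out each mouse gave 1.78 to 1.91 for Mt1, 2.30 to 2.44 for Mt2, 4281 to 5489 features called, 3 to 5 of the 10 genes higher and 1 to 2 lower, and 2 zinc-responsive genes higher and 2 to 4 lower. With the control pool's spread, 2846 features, 3 of the 10 genes higher, and 1 zinc-responsive gene higher and 1 lower were called. Against the 1.2-fold minimum these were 1051 features, 2 of the 10 genes higher and 0 lower, and 0 zinc-responsive genes higher and 1 lower. Of the 10 genes, 2 were lower with the swapped array turned and no dye term, 3 without that array, 2 under median centring and 2 without the filter on dim probes. Zinc-responsive genes called higher numbered 1 under median centring, and those called lower 5 with the swapped array turned, 6 without it, and 1 each with an offset of 0, processed signals and deposited values. Changes of sign were read for the 10 genes, up to 4 genes per list and the 6 most like Mt1 and Mt2. Without the swapped array Slc30a5 (0.056), Slc30a9 (-0.11), Slc30a4 (0.019), Slc39a3 (-0.037), Slc39a11 (-0.048) and Slc39a9 (0.012) changed sign, as did Slc30a9 with that array turned (-0.0072). Slc39a7 and Slc39a2, picked with their values known, averaged -0.14 and -0.009 in the 4 mice, against fitted values of 0.09 and 0.04. For these the cause was not tested. Fewer samples or a stricter null enter by construction where mice are left out or a minimum is set. No paired analysis was possible because the controls are a single pool. Dim probes, such as those of Slc39a10 and Slc39a5, limit the size that can be read.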
